A study of Homo sapiens with 9 samples.

Results

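The S100 calcium-binding proteins examined here were S100A2, S100A3, S100A4, S100A6, S100A10, S100A11, S100A13 and S100A16, 8 genes taken by symbol from the 58735 genes of the expression table. They were measured by RNA sequencing of GBM43, a human glioblastoma cell line, in devices of 3D hyaluronic acid gel into which the cells could invade. The study asked what extracellular glutamate and the NMDA receptor contribute to invasion. Control devices, which received DMSO vehicle (the series text says control medium), were divided by scalpel, giving a core and an invasive fraction. Devices given 50 µM MK801, a drug that blocks the channel of NMDA glutamate receptors, had too few invaded cells to cut apart and were sequenced whole. There were 3 core, 3 invasive and 3 MK801 libraries, all from this single line, grown in DMEM with serum before seeding. Drug and fraction therefore cannot be told apart in the MK801 libraries, which hold cells of both fractions. Whether the 3 libraries of a group are separate cultures is not stated in the labels. A p-value here therefore reflects the variation among these 9 libraries alone, and part of that variation may be technical.

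S100 proteins are small proteins with paired EF-hand calcium-binding loops, found mostly as dimers. Calcium opens a hydrophobic cleft through which the dimer grips a target protein, so an S100 protein acts by what it binds, and it has no enzyme activity of its own. In gliomas, S100A4 is best known from motile and mesenchymal cells, whereas S100B is the usual marker of astrocytic cells. The NMDA receptor is itself a calcium-permeable channel.

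Levels are given in FPKM, fragments per kilobase of gene length and scaled by the library total, as deposited. Gene fragments recovered from the FPKM numbered 15584610 to 54409666 per library. At equal depth, 20322 to 21414 genes were detected in core, 15975 to 19140 in invasive libraries and 15161 to 21517 in the MK801 libraries, with MK801 replicate 1 lowest and MK801 replicate 3 highest of all 9. Fragments had a GC content of 49.8 to 51.1% in core libraries, 52.7 to 54.4% in invasive libraries and 50.5 to 54.2% under MK801. The library total the authors divided by was 1.10 to 1.23 times the sum of gene fragments in core, 0.788 to 1.06 times in invasive libraries and 0.769 to 1.19 times in MK801 libraries. A given share of the gene fragments thus gave a higher FPKM in each invasive library than in any core library, and these differences in scale, genes detected and GC content moved with the groups.

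The labelled cell type was checked against marker lists. VIM ranged from 897 to 2101 FPKM and CD44 from 49.2 to 106, while SOX2 was between 1.39 and 3.26, NES, GFAP, PROM1 and FABP7 were under 1 FPKM in each library and OLIG2 was at 0. Among markers of other cells, all 6 myeloid and all 4 melanocyte and Schwann markers were under 1 FPKM in each library. Of the 5 neuron markers, TUBB3 alone reached 1 FPKM, at 1.29 to 2.29 over the 9 libraries. Of the 7 epithelial markers, KRT8 alone reached 1 FPKM, and KRT5, KRT14 and CDH1 were at 0. Of 4 endothelial markers, PECAM1 and CDH5 reached 1 FPKM in some libraries, CDH5 up to 3.15 in invasive replicate 2. The 8 fibroblast and pericyte markers summed to 70.5 to 145 FPKM in core, 351 to 618 in invasive libraries and 83.1 to 197 under MK801. That sum was carried by COL1A1, COL1A2 and PDGFRB, and DCN and RGS5 were under 1 FPKM in each library. RGS5 went against the sum, at 0.385 to 0.589 FPKM in core and 0.057 to 0.166 in invasive libraries.

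All 8 genes lie on the minus strand of chromosome 1 (build GRCh38) in the S100 gene cluster. S100A10 (ENSG00000197747, 151982915 to 151994390) and S100A11 (ENSG00000163191, 152032506 to 152047907) form a pair spanning 65.0 kb. The other 6 span 96.8 kb, and 1487 kb separate them from the pair. In order of position they are S100A6 (ENSG00000197956, 153534599 to 153536244), S100A4 (ENSG00000196154, 153543613 to 153550136), S100A3 (ENSG00000188015, 153547329 to 153549372), S100A2 (ENSG00000196754, 153561108 to 153567890), S100A16 (ENSG00000188643, 153606886 to 153613145) and S100A13 (ENSG00000189171, 153618787 to 153631360). S100A3 lies inside the span of S100A4, on the same strand, but shares 0 exon bases with it. Whether unspliced RNA of the far more abundant S100A4 was counted to S100A3 was not tested. S100A13 shares 235 exon bases (10.6% of its exons) with S100A1 on the opposite strand and 536 (24.2%) with the processed transcript AL162258.1, so its reads could be divided. Both partners were low, with at most 0.350 and 0.670 FPKM. Gene lengths were 680 to 2216 bases against a median of 4551 over tested genes, and GC contents 51.3 to 59.9% against 49.2%.

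Sequence before a RefSeq start of S100A4, S100A11 and S100A2 is shown because the ratios of these genes to other S100 genes separated the groups. Each run lies inside the span of its gene given above, not upstream of that span. S100A2 has a further listed start, whose 250-base window lay wholly in annotated exons and is not shown. Each run is the stretch of the 250 bases before the RefSeq start (GRCh38.p14) that holds no annotated exon, minus strand, at chr1:153545886-153546056 for S100A4, chr1:152037036-152037254 for S100A11 and chr1:153565866-153566094 for S100A2. Capitals mark matches to searched motifs, here the GC box GGGCGG in S100A11 and the AP-1 motif TGANTCA in S100A2.
S100A4: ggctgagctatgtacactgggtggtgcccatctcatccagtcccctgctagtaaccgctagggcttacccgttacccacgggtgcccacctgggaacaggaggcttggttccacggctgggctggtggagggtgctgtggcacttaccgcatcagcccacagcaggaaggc
S100A11: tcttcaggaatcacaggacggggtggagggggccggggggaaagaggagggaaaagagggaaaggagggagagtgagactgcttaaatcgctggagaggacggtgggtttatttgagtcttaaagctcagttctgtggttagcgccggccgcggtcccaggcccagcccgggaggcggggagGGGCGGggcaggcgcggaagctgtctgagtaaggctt
S100A2: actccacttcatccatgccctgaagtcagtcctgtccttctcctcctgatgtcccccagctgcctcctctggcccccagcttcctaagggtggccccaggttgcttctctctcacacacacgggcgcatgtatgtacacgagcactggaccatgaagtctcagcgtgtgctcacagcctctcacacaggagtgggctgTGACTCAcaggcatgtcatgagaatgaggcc

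The search covered both strands of the 250 bases before each start and 5 motifs, of which none contains another. GGGCGG was found for 6 of the 8 genes, and in 42.6% of 35116 RefSeq promoters. The TATA box TATAAA was found for S100A4, 31 bases before its start and outside the printed run, and for S100A13, 29 bases before one of its starts, and in 10.7% of all promoters. TGANTCA was found for S100A2, 52 bases before the start shown above, and for S100A3, 225 bases before its start, and in 6.6% of all promoters. The hypoxia response core ACGTG (18.5% of all promoters) and the TEAD motif GGAATG (11.9%) were each found for S100A16 only. S100A2, S100A13 and S100A16 have more than 1 listed start and so had more windows in which to match. These matches describe the letters of the windows.

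The S100 transcripts fell into an abundant and a scarce set. S100A6, which binds CACYBP and several annexins, had the highest mean over all 9 libraries and ranked 41 among 58735 genes. S100A11 ranked 70, S100A4 72, S100A16 80 and S100A10 156. S100A2 (rank 2784), S100A13 (2928) and S100A3 (8316) were far lower. In core libraries the order was S100A6 with 601 ± 81.7 FPKM (SD, n = 3 here and for each mean below), S100A11 with 366 ± 40.0, S100A16 with 363 ± 78.6, S100A4 with 345 ± 69.6, S100A10 with 197 ± 21.3, S100A2 with 16.1 ± 3.23, S100A13 with 9.46 ± 2.34 and S100A3 with 1.04 ± 0.161. The ranges of S100A11, S100A16 and S100A4 overlapped there, and the other neighbours in that order did not.

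**Figure D1:**
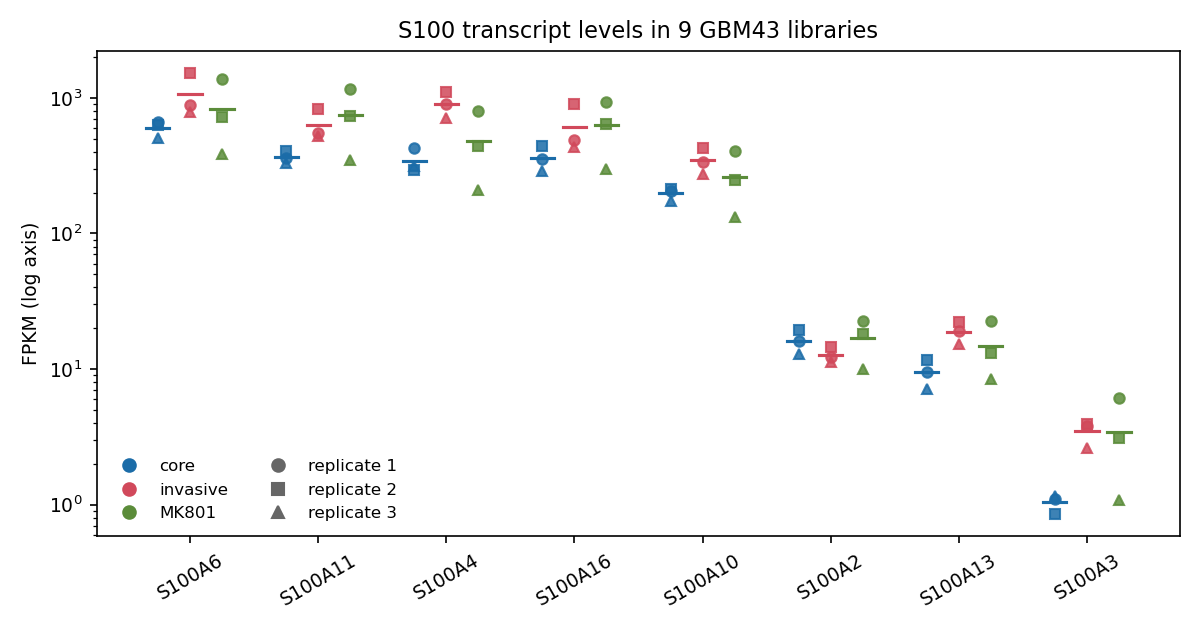
FPKM (log axis) of the 8 S100 genes in each of the 9 libraries; points are libraries, coloured by group and shaped by replicate, and bars are group means. S100A4 in the 3 invasive libraries lies above the 3 core libraries, while MK801 libraries spread across both.

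The order differed in the other groups. In invasive libraries S100A4 stood second with 902 ± 197 FPKM, behind S100A6 with 1066 ± 406 and ahead of S100A11 with 632 ± 166 and S100A16 with 612 ± 259, and neighbours among these overlapped. S100A10 followed with 345 ± 76.6, below the others in each library. S100A13 (18.9 ± 3.46) exceeded S100A2 (12.7 ± 1.74) in each invasive library, the reverse of the core. Under MK801 the means were 831 ± 504 for S100A6, 750 ± 405 for S100A11, 627 ± 318 for S100A16, 483 ± 297 for S100A4 and 261 ± 136 for S100A10, with overlap between each pair of neighbours. S100A2 (16.8 ± 6.34) and S100A13 (14.7 ± 7.28) overlapped as well, and S100A3 was again lowest with 3.45 ± 2.55.

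The first comparison set invasive against core cells of control devices. Of the 8 S100 genes, 7 had higher mean FPKM in invasive libraries, 1.69-fold (S100A16) to 3.35-fold (S100A3), and S100A2 had a mean 0.792 times the core mean, while with genes detected as a covariate S100A6 and S100A16 were below 0 too. Core and invasive libraries did not overlap in genes detected. The covariate therefore cannot be cleanly separated from the group, here or where it is used below. In limma over all 9 libraries, 0 of the 8 passed an adjusted p of 0.05. That fit called 0% of the 11845 genes tested, its smallest adjusted p was 0.0590, and limma-voom, run on fragments recovered from the FPKM, called 0 as well. At an unadjusted p under 0.05 there were 3 S100 genes (S100A3, S100A4, S100A13) and 4461 of all genes. The 3 invasive and 3 core libraries did not overlap for 6 of the 8, all higher, where 32% of all tested genes were higher without overlap and 64.8% did not overlap in either direction. The median log2 difference was 0.78 for the 8 S100 genes and -0.02 for all tested genes. Among the 6886 genes reaching 5 FPKM in at least 3 libraries, the medians were 0.77 for 7 S100 genes and 0.24 for all.

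S100A4 binds non-muscle myosin heavy chain IIA and loosens its filaments, and is widely studied in cell motility. Its level was 425, 296 and 314 FPKM in core replicates 1 to 3, 900, 1100 and 705 in invasive replicates, and 798, 442 and 208 in MK801 replicates. All invasive libraries were above all core libraries, and MK801 replicate 3 was the lowest of the 9. Invasive libraries averaged 2.61 times the core, a log2 difference of 1.38 ± 0.44 (SE, adjusted p = 0.106). In a fit of the core and invasive libraries alone the SE was 0.25 and the adjusted p 0.00451. That fit called 5 of the 8 S100 genes (S100A3, S100A4, S100A10, S100A11 and S100A13, all higher) and 52.2% of all genes, 26.3% higher. With the GC trend of each library also removed it called 4 (S100A4, S100A10 and S100A13 higher, S100A2 lower) and 17.2% of all genes, and in TPM, where each library is rescaled to the same sum, 6 and 48.1%. The 9-library fit called 4 without MK801 replicate 1 (39.5% of all genes) and 5 without MK801 replicate 3 (41.3%). The collagen and PDGFRB sum given above moved with S100A4 across the groups, and its part in the result was not tested. In these bulk libraries a change in the share of cells of one kind and a change in RNA per cell cannot be told apart.

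S100A10, also called p11, is fixed in the open form without calcium and pairs with annexin A2 at the membrane, where the complex binds plasminogen. It was at 207, 212 and 173 FPKM in the core libraries, 336, 426 and 274 in the invasive ones and 404, 246 and 133 under MK801. The invasive libraries did not overlap the core, at 1.75 times its mean (log2 difference 0.79 ± 0.38, adjusted p = 0.148). With genes detected as a covariate the difference was 0.090.

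S100A11, the usual partner of annexin A1, was at 362, 408 and 328 FPKM in the core libraries, 552, 822 and 521 in the invasive ones and 1160, 740 and 350 under MK801. Invasive again exceeded core in each library (log2 difference 0.76 ± 0.41, adjusted p = 0.182), a difference of 0.013 with genes detected as a covariate. S100A6 was at 666, 627 and 509 FPKM in the core libraries, 879, 1531 and 786 in the invasive ones and 1380, 725 and 388 under MK801. Its invasive libraries also lay above the core (0.77 ± 0.45, adjusted p = 0.208), with replicate 2 well above the other two. The difference was 0.48 without that library and 0.10 with the GC trend removed.

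S100A16, a broadly expressed member with weaker calcium binding, was at 355, 445 and 288 FPKM in the core libraries, 491, 909 and 436 in the invasive ones and 935, 644 and 301 under MK801. Core replicate 2 exceeded invasive replicate 3, so the groups overlapped (0.70 ± 0.44, SE, with an adjusted p of 0.2396). The difference was 0.37 without invasive replicate 2 and 0.084 with the GC trend removed. S100A13 helps FGF1 and IL1A leave the cell without the classical secretion route. It was at 9.55, 11.7 and 7.07 FPKM in the core libraries, 19.1, 22.2 and 15.3 in the invasive ones and 22.7, 13.1 and 8.39 under MK801. Invasive and core did not overlap, and the invasive mean was 2.00 times the core mean (0.94 ± 0.33, adjusted p = 0.108). It was 0.52 with the GC trend removed and 0.34 with genes detected as a covariate.

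S100A3, a cysteine-rich zinc binder known from hair, was measured from only 14 to 83 fragments per library. It was at 1.09, 0.854 and 1.16 FPKM in the core libraries, 3.81, 3.96 and 2.62 in the invasive ones and 6.14, 3.12 and 1.08 under MK801. The invasive libraries exceeded the core without overlap (log2 difference 1.12 ± 0.38, adjusted p = 0.106), by 0.48 with the GC trend removed and 0.43 with genes detected as a covariate. At so low a level, adding 1 to FPKM before the logarithm makes the difference smaller than the fold of the means.

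S100A2, a nuclear member typical of squamous epithelium, was the exception. It was at 16.1, 19.3 and 12.8 FPKM in the core libraries, 12.3, 14.6 and 11.2 in the invasive ones and 22.4, 18.1 and 9.93 under MK801, and the groups overlapped (invasive minus core -0.30 ± 0.29, adjusted p = 0.423). In TPM, S100A2 was at 65.1, 70.9 and 55.9 TPM in core, 40.4, 38.1 and 38.9 in invasive libraries and 50.3, 53.9 and 42.5 under MK801. On that scale all invasive libraries lay below all MK801 libraries, and these below all core libraries, a separation of MK801 from core that 15.1% of tested genes showed in TPM and S100A2 alone among the 8. Of the 8 genes, 7 did not overlap between invasive and core in TPM, S100A2 lower and the other 6 higher, where 63.6% of tested genes did not overlap. TPM scaling moved the median log2 difference of all genes to -0.37 and that of the 8 S100 genes to 0.40.

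**Figure D2:**
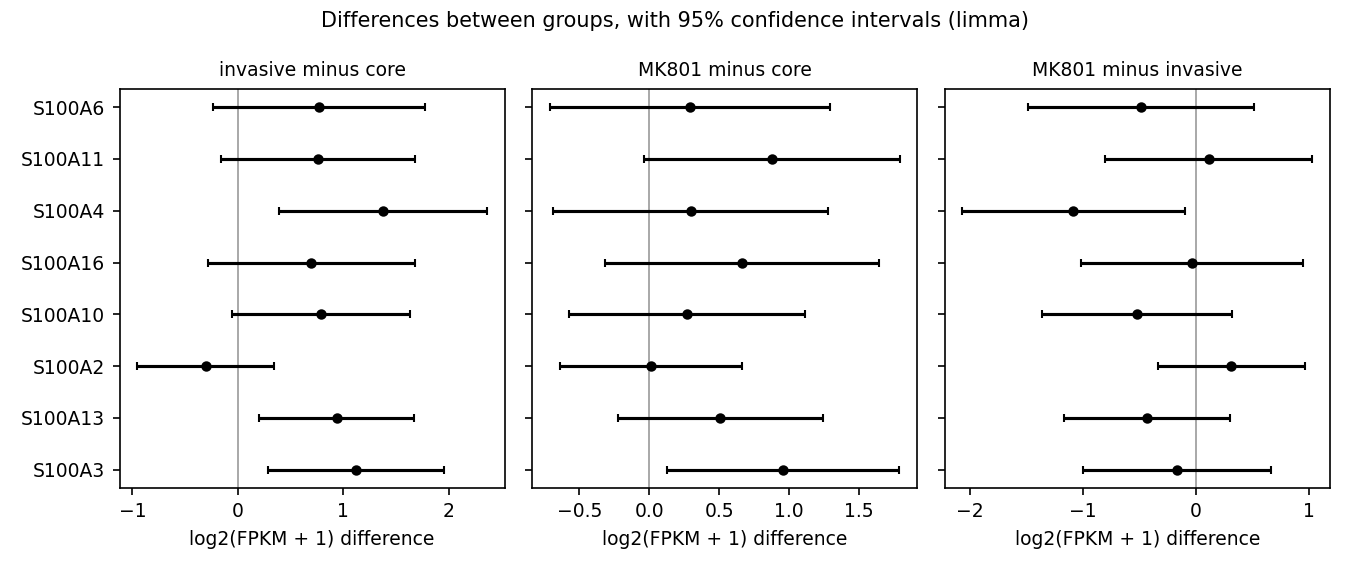
Log2(FPKM + 1) difference of each S100 gene in the 3 comparisons, from limma over all 9 libraries, with bars for 95% confidence intervals. For invasive minus core the intervals of S100A4, S100A13 and S100A3 lie above 0 before adjustment, and S100A2 is the only gene below 0.

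The second comparison set MK801 devices against control core. The 8 S100 genes had log2 differences of 0.01 (S100A2) to 0.96 (S100A3), all above 0 in FPKM but below 0 in TPM for S100A2, S100A4, S100A6 and S100A10, with a median of 0.40 against 0.00 for all tested genes. Among the 6886 genes reaching 5 FPKM in at least 3 libraries, the medians were close, 0.30 for 7 S100 genes and 0.23 for all. Limma called 0 of the 8 and 0% of all genes at an adjusted p of 0.05, and limma-voom called 0. At an unadjusted p under 0.05 there were 1 S100 gene (S100A3) and 2509 of all genes. For none of the 8 did the libraries separate in FPKM, where 18.7% of tested genes did. S100A11 averaged 2.05 times the core (log2 difference 0.88 ± 0.41, adjusted p = 0.237) and S100A16 1.73 times (0.66 ± 0.44, adjusted p = 0.316). S100A4 (0.30 ± 0.44), S100A6 (0.29 ± 0.45) and S100A10 (0.27 ± 0.38) differed less from core than their SEs.

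The MK801 libraries were far apart. Replicate 1 had 2.26 times (S100A2) to 5.69 times (S100A3) the FPKM of replicate 3, while the highest core library exceeded the lowest by at most 1.66 times. MK801 replicate 3 was within or below the core range for each of the 8 genes, and replicate 1 was the highest of the 9 libraries for S100A2, S100A3, S100A11, S100A13 and S100A16. These 2 libraries also had the most and the fewest genes detected. Without replicate 3, 4 of the 8 S100 genes were called higher than core (S100A3 1.42, S100A11 1.34, S100A13 0.83 and S100A16 1.12), along with 50.2% of all genes, 25.2% higher. Without replicate 1, none was called, and S100A4 (-0.17), S100A6 (-0.17), S100A10 (-0.12) and S100A2 (-0.22) were below 0.

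In the third comparison, MK801 against invasive, limma called 0 of the 8 and 0% of all genes, limma-voom 0, and 978 genes had an unadjusted p under 0.05, S100A4 among them. The groups overlapped in FPKM for all 8, where 10.8% of tested genes did not overlap. The median log2 difference was -0.30 for the 8 genes and -0.00 for all tested genes. S100A4 differed by -1.08 ± 0.44 (adjusted p = 0.547), from a mean of 902 to 483 FPKM. S100A10 (-0.52 ± 0.38), S100A6 (-0.48 ± 0.45) and S100A13 (-0.43 ± 0.33) had lower means in MK801, S100A2 a higher one (0.32 ± 0.29), and S100A3, S100A11 and S100A16 differed by less than 0.2. In TPM, S100A4 was at 2944, 2866 and 2453 in invasive libraries and 1791, 1315 and 890 under MK801, without overlap. S100A10 and S100A13 were likewise lower and S100A2 higher without overlap in TPM, 4 of 8 where 13.6% of tested genes did not overlap. With genes detected added to the model as a covariate, S100A4 was called lower in MK801 (-0.87, adjusted p = 0.0375), as were 2.73% of all genes in either direction.

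**Figure D3:**
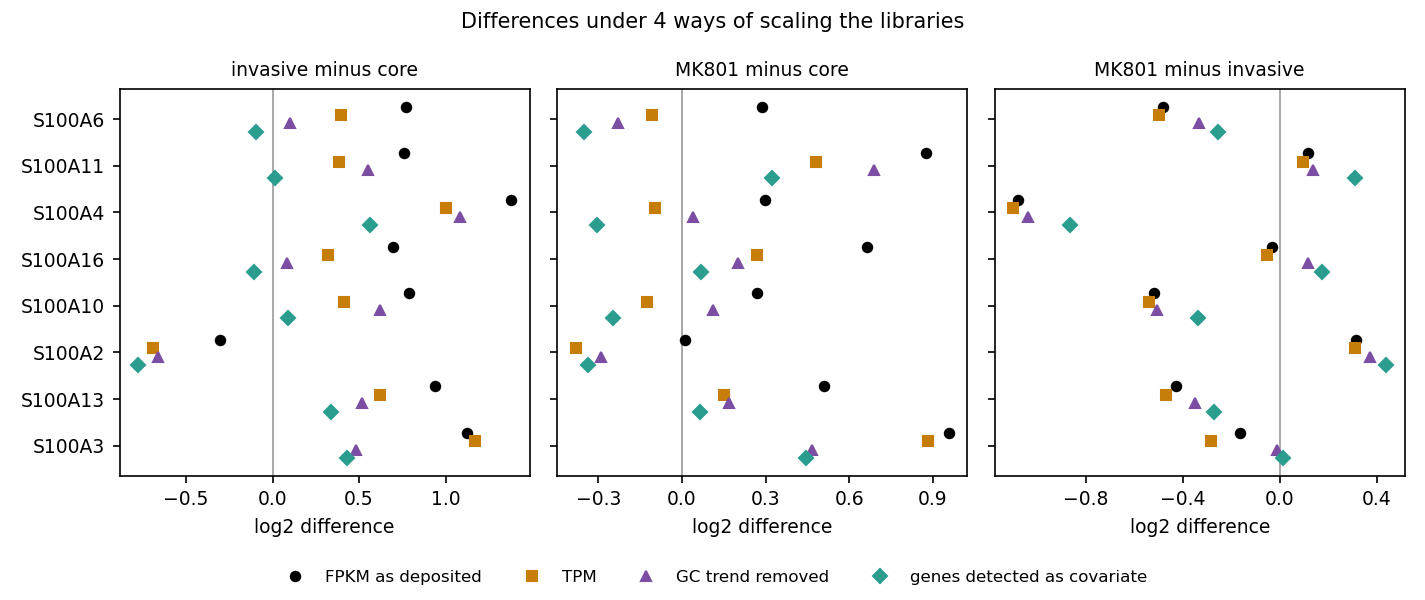
Log2 differences of the 8 S100 genes in the 3 comparisons, for FPKM as deposited, TPM, values with the GC trend of each library removed, and a fit with genes detected as a covariate. S100A4 stays at 0.56 or above for invasive minus core and at -0.87 or below for MK801 minus invasive, whereas S100A6 and S100A16 cross 0 in the first panel.

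The position of a member relative to another within the same library does not depend on how a library is scaled. Ratios of FPKM were therefore taken for all 28 pairs. The invasive and core libraries did not overlap for 17 pairs, MK801 and core for 12 and MK801 and invasive for 15. Among all 62759206 pairs of the 11204 tested genes above 0 in each library, the shares without overlap were 58.9%, 18.2% and 13.4%, against 60.7%, 42.9% and 53.6% of the S100 pairs. For invasive and core the S100 pairs were thus near the background. Pairs share members, and the ratios described here were chosen after their values were seen. With 3 against 3 libraries an exact two-sided permutation p cannot fall below 0.1, so they are given as values.

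S100A4 was highest relative to the other abundant S100 genes in the invasive fraction. The ratio of S100A4 to S100A11 was 1.17, 0.726 and 0.958 in core, 1.63, 1.34 and 1.35 in invasive libraries and 0.688, 0.598 and 0.594 under MK801. The 3 groups did not overlap, with invasive highest and MK801 lowest. The geometric mean was 1.53 times the core value in invasive libraries and 0.669 times in MK801. S100A4 over S100A10 was 2.05, 1.40 and 1.82 in core, 2.68, 2.58 and 2.58 in invasive libraries and 1.97, 1.80 and 1.56 under MK801, so that core and MK801 overlapped and invasive stood apart. As a share of the summed FPKM of the 8 genes, S100A4 made up 18.2 ± 3.19% in core, 25.5 ± 2.71% in invasive libraries and 15.8 ± 1.02% under MK801.

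S100A11, and to a lesser extent S100A16, stood high relative to S100A10 in the MK801 libraries. S100A10 over S100A11 was 0.572, 0.519 and 0.526 in core and 0.610, 0.518 and 0.525 in invasive, but 0.349, 0.333 and 0.380 in MK801 libraries. The MK801 libraries lay close together in this ratio although their levels of either gene differed more than 3-fold between replicates 1 and 3. S100A6 over S100A11 was 1.54 to 1.84 in core, 1.51 to 1.86 in invasive libraries and 0.980 to 1.19 under MK801. S100A11 made up 19.3 ± 1.40% of the summed FPKM in core, 17.8 ± 1.05% in invasive libraries and 25.2 ± 0.818% under MK801. S100A16 kept closer to S100A11. The ratio of S100A11 to S100A16 was 0.917 to 1.14 in core, 0.905 to 1.20 in invasive libraries and 1.15 to 1.24 under MK801. In this ratio invasive overlapped both other groups. S100A10 over S100A16 was also lowest under MK801, at 0.383 to 0.443, without overlap. It was 0.476 to 0.599 in core and 0.469 to 0.685 in invasive libraries.

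S100A2 over S100A13 separated all 3 groups, at 1.68, 1.64 and 1.81 in core, 0.647, 0.657 and 0.730 in invasive libraries and 0.989, 1.39 and 1.18 under MK801. The invasive geometric mean was 0.396 times and the MK801 one 0.687 times that of the core. Ratios are free of library scale but not of GC content or transcript quality, so the log2 differences between members were also taken with the GC trend removed, with genes detected as a covariate and with each library of the compared groups left out. S100A4 relative to S100A11 was 0.62 for invasive minus core as deposited, 0.53 with the GC trend removed, 0.55 with the covariate and 0.44 to 0.78 with a library left out. For MK801 minus core these values were -0.58, -0.65, -0.63 and -0.76 to -0.41, and for MK801 minus invasive -1.20, -1.18, -1.18 and -1.26 to -1.10. S100A10 relative to S100A11 was -0.61, -0.58, -0.57 and -0.66 to -0.56 for MK801 minus core. S100A2 relative to S100A13 was -1.24, -1.18, -1.11 and -1.30 to -1.21 for invasive minus core, and -0.50, -0.46, -0.40 and -0.61 to -0.38 for MK801 minus core. These differences kept their sign in each of those fits. S100A6 relative to S100A11 was -0.59 for MK801 minus core and -0.92 with the GC trend removed, while for invasive minus core it was 0.01 as deposited and -0.45 with that trend removed.

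**Figure D4:**
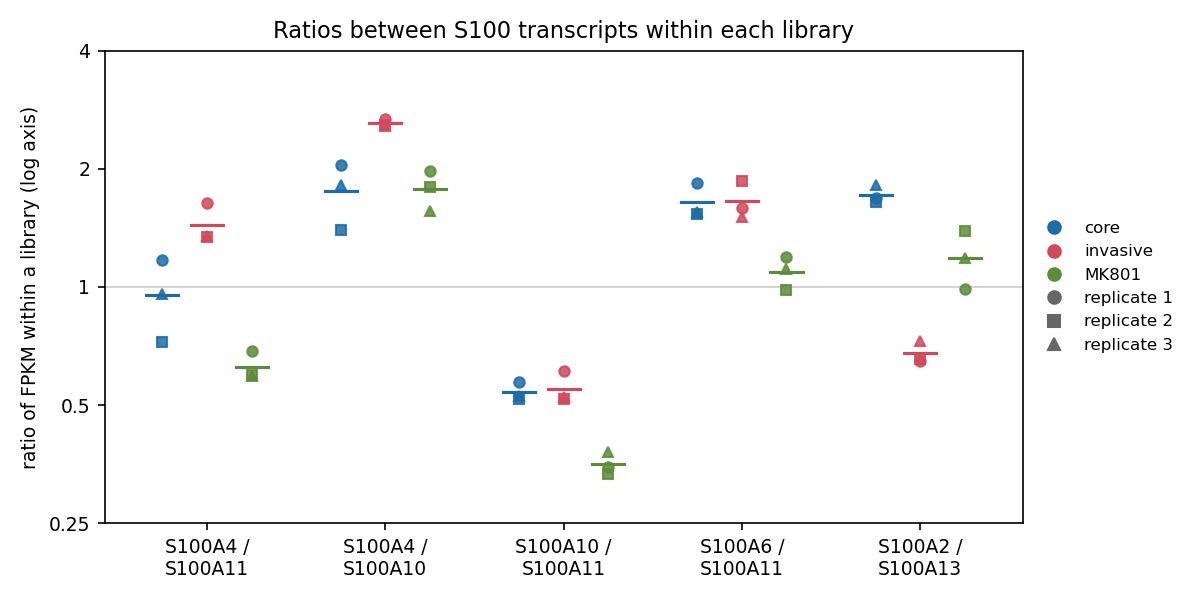
Ratio of FPKM between pairs of S100 genes within each library (log axis). Points are libraries, coloured by group and shaped by replicate, and bars are arithmetic means. Invasive libraries are highest in both S100A4 ratios, and MK801 libraries are lowest in S100A10 over S100A11, 0.333 to 0.380 against 0.518 or more elsewhere.

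Of 12 other S100 genes, 11 were under 1 FPKM in each library and 5 of these (S100A7A, S100A8, S100A9, S100A12, S100Z) were at 0 throughout, where 0 allows up to 3 fragments. S100B, the astrocytic marker, had 11 fragments in invasive replicate 2 and 0 in the other 8 libraries. S100A5, known from olfactory neurons, was at 2.06, 1.41 and 1.64 FPKM in the core libraries, 0.838, 1.77 and 1.02 in the invasive ones and 2.52, 0.165 and 0.785 under MK801, with 2 to 45 fragments per library. It was not called in any comparison (log2 differences -0.31, -0.47 and -0.16). The pseudogene S100A11P1, a possible sink for S100A11 reads, reached 0.197 FPKM in MK801 replicate 3 and was 0 elsewhere.

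Annexins are calcium-dependent membrane-binding proteins and the main partners of S100A10, S100A11 and S100A6. Of 12 annexin genes 8 were tested, and the 9-library fit called 0 in any comparison. With the core and invasive libraries fitted alone, where 52.2% of all genes were called, 4 of the 8 were called (ANXA5, ANXA6 and ANXA11 higher, ANXA1 lower). With the GC trend also removed, 6 of the 8 were called, 4 higher and 2 lower, where 17.2% of all genes were. In the 9-library fit 7 were above 0 and 1 below for invasive minus core (median 0.26). The counts were 5 and 3 for MK801 minus core (0.11), and 2 and 6 for MK801 minus invasive (-0.21). ANXA1, the partner of S100A11, was the one below 0 in invasive libraries. It was at 68.5, 64.6 and 106 FPKM in the core libraries, 20.8, 25.9 and 32.5 in the invasive ones and 11.2, 21.9 and 59.9 under MK801, lower in each of the last 6 than in any core library. Its log2 difference from core was -1.55 ± 0.49 in invasive (adjusted p = 0.106) and -1.62 ± 0.49 in MK801 (adjusted p = 0.235). With 39.5% GC, ANXA1 is poorer in GC than S100A11 (51.9%), and removing the GC trend reduced these to -0.82 and -0.95. With genes detected as a covariate the invasive difference was -0.65. The ratio of S100A11 to ANXA1 was 3.09 to 6.31 in core, 16.1 to 31.7 in invasive libraries and 5.84 to 104 under MK801.

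ANXA2, the partner of S100A10, was at 107.5, 99.6 and 95.8 FPKM in the core libraries, 121, 196 and 114 in the invasive ones and 153, 84.6 and 74.3 under MK801. It has near-identical processed pseudogenes that can take its reads, so its level is uncertain. S100A10 over ANXA2 was 1.80 to 2.12 in core, 2.17 to 2.78 in invasive libraries and 1.79 to 2.91 under MK801. ANXA6 (log2 difference 1.16, adjusted p = 0.108), ANXA11 (0.82, adjusted p = 0.111) and ANXA5 (0.65, adjusted p = 0.144) had higher means in invasive than in core libraries. In that order the differences were 0.32, 0.25 and 0.13 with genes detected as a covariate, and 0.76, 0.47 and 0.96 with the GC trend removed.

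Of 19 other genes whose proteins S100 proteins bind, 12 were tested, and the 9-library fit called 0 in any comparison. With the core and invasive libraries fitted alone, 7 of the 12 were called, where 52.2% of all genes were called, 26.3% higher. Of these 7, 5 were higher (MYH9, PLAT and PLAU among them) and 2 lower. With the GC trend also removed, 7 were again called, where 17.2% of all genes were. MYH9, CACYBP and SUGT1 were then not among them. In that fit 5 were higher and 2 lower, the lower ones AGER (-1.02, adjusted p = 0.0301) and AHNAK (-0.51, adjusted p = 0.0240). For invasive minus core 6 were above and 6 below 0 (median -0.01), for MK801 minus core 5 and 7 (-0.00), and for MK801 minus invasive 3 and 9 (-0.35). MYH9, the myosin bound by S100A4, was at 77.5, 60.6 and 53.2 FPKM in the core libraries, 112, 185 and 84.2 in the invasive ones and 90.0, 95.0 and 40.2 under MK801. Its invasive libraries lay above the core (0.93 ± 0.39, adjusted p = 0.120), by 0.29 with the GC trend removed and 0.31 with genes detected as a covariate. S100A4 over MYH9 was 4.88 to 5.91 in core, 5.94 to 8.38 in invasive libraries and 4.66 to 8.87 under MK801, which overlapped both.

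The plasminogen activators, whose substrate S100A10 helps hold at the cell surface, were among the 4 partners with the smallest p. PLAT was at 4.37, 2.17 and 3.26 FPKM in the core libraries, 9.02, 12.2 and 7.89 in the invasive ones and 8.26, 5.45 and 3.02 under MK801 (invasive minus core 1.34 ± 0.32, adjusted p = 0.0938). PLAU was at 49.0, 32.4 and 39.1 FPKM in the core libraries, 93.7, 80.5 and 74.3 in the invasive ones and 56.3, 49.6 and 27.6 under MK801 (1.04 ± 0.29, adjusted p = 0.104). For both genes all invasive libraries exceeded all core libraries. With genes detected as a covariate the differences were 0.80 and 0.68. SUGT1, a chaperone adaptor bound by S100A6, had a lower mean in invasive libraries (-0.87 ± 0.24, adjusted p = 0.103), which was -0.09 with the GC trend removed. CACYBP, the calcyclin-binding protein, differed by -0.42 ± 0.21 and turned to 0.07 with that trend removed. AHNAK, the large scaffold bound by the S100A10 and annexin A2 complex, was at 76.9 to 80.9 FPKM in core, 57.5 to 69.2 in invasive libraries and 25.6 to 65.1 under MK801. AGER, the receptor for several secreted S100 proteins, was between 0.562 and 1.78 FPKM.

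Neighbouring genes were examined because the S100 genes lie in clusters. Other S100 genes were left out of this count. Of 8 protein-coding genes outside the family that start within 100 kb of a member, 2 were at 0 and 5 were tested (SNAPIN, CHTOP, THEM4, ILF2 and INTS3). All 5 had log2 differences above 0 for invasive minus core, with a median of 0.24 and 0 called. S100A5, among the S100 genes left out, had a difference of -0.31 in that comparison. Of all tested genes 49.1% were above 0 there, with a median of -0.02 and 0% called. Among the 6886 genes reaching 5 FPKM in at least 3 libraries, 59.0% were above 0, with a median of 0.24. CHTOP (0.14 ± 0.21) and THEM4 (0.04 ± 0.24) differed by less than their SEs. For MK801 minus core 3 of the 5 were above and 2 below 0 (median 0.16), and for MK801 minus invasive 1 and 4 (-0.24).

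The likeness of patterns was measured as the root-mean-square difference of log2(FPKM + 1) over the 9 libraries after centring each gene, a description that includes the shared scale of each library. Among the 8 members the most alike were S100A6 and S100A10 (0.132), S100A11 and S100A16 (0.155) and S100A10 and S100A13 (0.157), and the least alike S100A2 and S100A4 (0.790). S100A10 and S100A11, neighbours on the chromosome, differed by 0.305. Against 5886 other protein-coding genes averaging 5 FPKM or more, the closest to S100A11 were TMUB1 (0.0511) and MCRIP2 (0.0712), where the median gene differed by 0.468. S100A4 was closest to PLOD1 (0.137), a collagen lysyl hydroxylase, and POC1A (0.147). The closest genes were FSTL3 and SORD for S100A2, ARRB2 and SRA1 for S100A3, NENF and NSMCE1 for S100A6, SSR2 and FN3KRP for S100A10, CENPX and APH1A for S100A13, and TMBIM1 and CTDNEP1 for S100A16, at 0.0811 to 0.152.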

How the data were processed

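Expression was deposited by the authors as FPKM per gene for 9 libraries, with gene length beside it. Alignment with HISAT2 2.0.5 to GRCh38 and counting with featureCounts 1.5.0-p3 are listed in the submitters' processing notes; the settings, including strand, are not given in the sources used here. All values above 0 were whole fragments once multiplied out (100%, tolerance 0.01), so fragments could be recovered. 0 value columns were unmapped. Depth and the level of 0 (3 fragments) limit low values, and cover counting error only.

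Genes with at least 1 FPKM in at least 3 libraries (11845) were tested on log2(FPKM + 1) with limma 3.58.1 in R 4.3.3 (trended empirical Bayes, 1 mean per group, 6 residual degrees of freedom), with Benjamini-Hochberg adjustment over all of them and a threshold of 0.05. All 8 S100 genes passed the filter. Gene models matched GENCODE release 29. The members and lists were chosen with earlier results of these data known. Named were the 8 members, other S100 genes reaching 1 FPKM, a fixed set of partners and the 4 annexins and 4 partners with the smallest p, and the 2 genes closest in pattern to each member, from protein-coding genes averaging 5 FPKM or more. The values of 1 partner are not reported here. Alternatives were other pseudocounts, filters and scalings, removal of the GC trend (loess, span 0.3), genes detected as a covariate, groups compared alone, a replicate block, limma-voom and leaving out each library. TPM with groups alone, and omitting the 2 libraries that detected fewest genes, were chosen after seeing the data.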

Additional observations from a re-analysis of the deposited data

How the results depend on the processing

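The number of S100 genes called for invasive minus core was 0 in the 9-library fit, 5 with the groups compared alone, 4 with the groups alone and the GC trend removed, 6 in TPM with the groups alone, and 0 to 5 when 1 library was left out (4 without MK801 replicate 1 and 5 without MK801 replicate 3, with 39.5% and 41.3% of all genes). All genes called numbered 0 in the 9-library fit and 6179, 2031 and 5697 in the first 3 of these fits, and the called set included S100A2, lower, wherever the groups were fitted alone with GC removed (-0.66) or in TPM (-0.69). For MK801 minus core the count was 0 to 4 over left-out libraries, and for MK801 minus invasive it was 1 with genes detected as a covariate and 0 in each other fit. The median of the 8 genes for invasive minus core was 0.40 in TPM, 0.32 after quantile normalization and 0.05 with genes detected as a covariate, and with that covariate S100A6 (-0.10) and S100A16 (-0.11) changed sign. Because core and invasive libraries did not overlap in genes detected, that fit cannot cleanly separate group from covariate.

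Most sign changes were for MK801 minus core. In TPM, S100A2, S100A4, S100A6 and S100A10 were -0.38, -0.10, -0.11 and -0.13, after quantile normalization -0.26, -0.18, -0.24 and -0.21, and with the covariate -0.34, -0.31, -0.35 and -0.25. With the GC trend removed S100A2 and S100A6 were -0.29 and -0.23, and S100A2 was -0.077 in limma-voom. Over left-out libraries the ranges were -0.22 to 0.33 (S100A2), -0.17 to 0.80 (S100A4), -0.17 to 0.74 (S100A6) and -0.12 to 0.68 (S100A10), and without the 2 libraries with the fewest genes detected these were -0.22, -0.17, -0.17 and -0.12. For MK801 minus invasive, S100A16 was 0.12 with the GC trend removed, 0.18 with the covariate and 0.022 in limma-voom, S100A3 was 0.014 with the covariate, and S100A11 was -0.075 without those 2 libraries. Over left-out libraries the ranges there were -0.40 to 0.42 (S100A16), -0.28 to 0.58 (S100A11) and -0.60 to 0.29 (S100A3). The cause was not tested.

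Core and invasive libraries share replicate numbers and column stems, but the labels do not say that they came from the same devices. Correlations of deviations from group means were -0.007, 0.24 and 0.44 for core and invasive libraries of the same number. They were -0.40 to 0.21 for core and invasive libraries of different numbers. With so few libraries these values cannot decide whether the numbers mark pairs, and the main fit did not pair them. A replicate block gave 3 S100 genes for invasive minus core (S100A3, S100A4 and S100A13) and 21.3% of all genes, 0 with the GC trend also removed, and 0 in the other comparisons.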
